A study of Sus scrofa with 45 samples.

Results

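The Toll-like receptors (TLRs) are a family of innate immune receptors. Their members on the array were taken as all non-control probes whose gene name is TLR with a number or whose description names a toll-like receptor. The rule found 13 of the 43603 probes: 12 receptor probes of 9 genes, of the 2113 genes that have a symbol here, and 1 probe described as the adaptor TICAM2. The genes are TLR1, TLR2, TLR3, TLR4, TLR6, TLR7, TLR8, TLR9 and TLR10, with 4 probes for TLR4 and 1 for each of the others. TLR5 had no probe by this rule and is not analysed here.

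Gene expression was measured on 45 arrays of blood from male miniature pigs of the Clawn breed, 12 weeks old when feeding began and 5 per diet by the study's methods. The pigs ate a control diet, a diet with 15% lard and 2% cholesterol (HFCD), or a diet with 37% sucrose beside the same lard and cholesterol (HFCSD). Whole blood was taken after 10, 19 and 27 weeks of feeding, at ages of 22, 31 and 39 weeks, and white blood cells were taken at 27 weeks. Each of the 12 groups holds 4 arrays, except that whole blood has 3 under HFCSD at 19 weeks and 3 under each of HFCD and HFCSD at 27 weeks.

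TLRs bind conserved molecules of microbes and some molecules of damaged host cells. Those at the cell surface, TLR1, TLR2, TLR4, TLR6 and TLR10, recognise mainly lipids and lipoproteins, and those in endosomes, TLR3, TLR7, TLR8 and TLR9, recognise nucleic acids. Through adaptors such as MYD88 they lead to activation of NF-kappa-B and interferon regulatory factors, and in blood they are best known from monocytes, neutrophils, dendritic cells and B cells.

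All values below are log2 intensities, quantile normalized over the 45 arrays, and each probe is compared only with itself. A probe counted as detected on an array where the image software marked its spot as well above background. That mark was set on 35.4% to 53.3% of probe spots per array (median 43.9%). Of the 12 receptor probes, 7 were detected on all 45 arrays: those of TLR1, TLR2, TLR7 and TLR10 and the TLR4 probes A_72_P165431, A_72_P180746 and A_72_P303724. Of all probes on the array, 27.7% were. On the 12 white blood cell arrays, all 12 receptor probes were detected on every array, against 37.3% of all probes. On the 10 whole blood arrays of the same 27 weeks the number was 8 of 12. Of all probes detected on every white blood cell array, 80.4% were also detected on all 10 of those whole blood arrays. The adaptor probe A_72_P023376 was detected on 0 of 45 arrays, with intensities from 1.42 to 2.33, and entered no test.

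**Figure D1:**
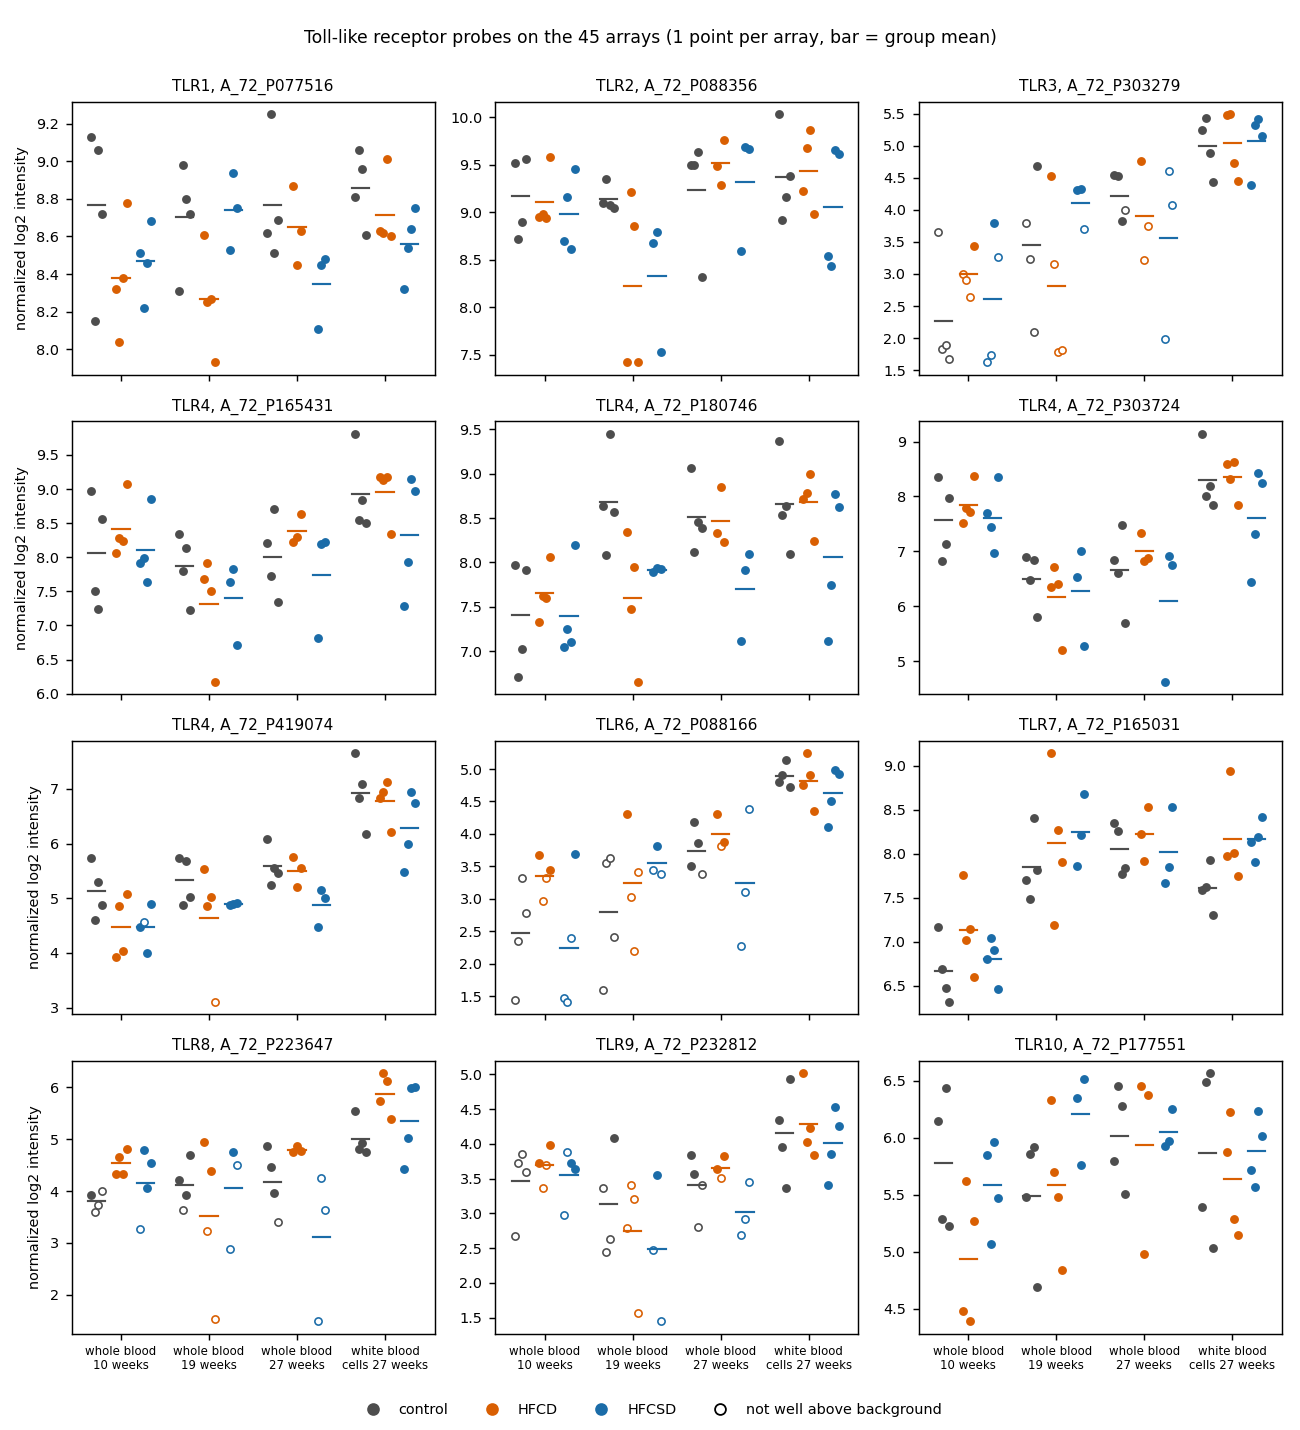
Normalized log2 intensity (vertical axis, a separate scale for each panel) of the 12 receptor probes in the 12 groups (horizontal axis); each point is 1 of the 45 arrays, open where the spot was not well above background, and bars are group means. The TLR7 probe lies between 6.32 and 7.76 on the 12 whole blood arrays of 10 weeks, and TLR3, TLR6, TLR8 and TLR9 are filled on all 12 white blood cell arrays.

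Group levels below are means ± SD in the order control, HFCD and HFCSD. Where neighbours in the order of group means are set against their spread, this says nothing about groups further apart in that order. Among the surface receptors, TLR2 pairs with TLR1 or TLR6 to bind bacterial lipoproteins. The TLR2 probe ranged from 7.42 to 10.03 over the 45 arrays (median 9.16). In whole blood its levels were 9.17 ± 0.43, 9.11 ± 0.31 and 8.98 ± 0.40 at 10 weeks, 9.14 ± 0.14, 8.23 ± 0.94 and 8.33 ± 0.70 at 19 and 9.24 ± 0.61, 9.52 ± 0.24 and 9.31 ± 0.63 at 27 weeks, and in white blood cells 9.37 ± 0.47, 9.43 ± 0.40 and 9.06 ± 0.66. The lowest group was HFCD at 19 weeks, where 2 of 4 arrays (7.42 and 7.43) lay far below the others (8.85 and 9.21), and no neighbours in the order of levels were further apart than their spread. The TLR1 probe ranged from 7.93 to 9.25 (median 8.62). Its whole blood levels were 8.77 ± 0.45, 8.38 ± 0.30 and 8.47 ± 0.19 at 10 weeks, 8.70 ± 0.28, 8.26 ± 0.28 and 8.74 ± 0.21 at 19 and 8.77 ± 0.33, 8.65 ± 0.21 and 8.35 ± 0.20 at 27 weeks, and those of white blood cells 8.86 ± 0.19, 8.72 ± 0.20 and 8.56 ± 0.18. Here too no neighbouring groups differed beyond their spread.

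TLR10, a relative of TLR1 whose ligand is less clear, ranged from 4.39 to 6.57 (median 5.80). Its levels were 5.77 ± 0.61, 4.94 ± 0.60 and 5.59 ± 0.40 at 10 weeks, 5.49 ± 0.57, 5.59 ± 0.62 and 6.21 ± 0.40 at 19 and 6.02 ± 0.43, 5.94 ± 0.83 and 6.05 ± 0.18 at 27 weeks in whole blood, and 5.87 ± 0.78, 5.64 ± 0.51 and 5.89 ± 0.30 in white blood cells, with the lowest group HFCD at 10 weeks and no neighbours apart beyond their spread. The TLR6 probe was detected on 10 of 33 whole blood arrays, and its levels there lie partly in the noise: 2.48 ± 0.79, 3.35 ± 0.30 and 2.25 ± 1.06 at 10 weeks, 2.80 ± 0.98, 3.24 ± 0.87 and 3.55 ± 0.24 at 19 and 3.73 ± 0.37, 4.0 ± 0.27 and 3.25 ± 1.06 at 27 weeks. In white blood cells, where all 12 arrays detected it, they were 4.89 ± 0.18, 4.82 ± 0.37 and 4.63 ± 0.41. The 3 white blood cell groups came first in its order, with a gap of 0.63 to the next group. In the assembly Sscrofa11.1, TLR10, TLR1 and TLR6 are neighbouring genes.

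TLR4 binds bacterial lipopolysaccharide together with the co-receptor LY96, to which CD14 hands it. Probe A_72_P165431 ranged from 6.17 to 9.81 (median 8.21), with whole blood levels of 8.07 ± 0.83, 8.41 ± 0.45 and 8.10 ± 0.53 at 10 weeks, 7.88 ± 0.49, 7.32 ± 0.79 and 7.39 ± 0.59 at 19 and 8.0 ± 0.59, 8.39 ± 0.21 and 7.74 ± 0.81 at 27 weeks, and 8.92 ± 0.61, 8.96 ± 0.41 and 8.33 ± 0.88 in white blood cells. Probe A_72_P180746, given to TLR4 by a protein entry name in its description where the other 3 have a RefSeq match, ranged from 6.65 to 9.45 (median 8.09), with 7.40 ± 0.64, 7.65 ± 0.30 and 7.40 ± 0.54 at 10 weeks, 8.69 ± 0.57, 7.61 ± 0.73 and 7.91 ± 0.03 at 19 and 8.51 ± 0.40, 8.47 ± 0.33 and 7.70 ± 0.52 at 27 weeks, and 8.66 ± 0.53, 8.69 ± 0.32 and 8.06 ± 0.78 in white blood cells. Its highest group was control whole blood at 19 weeks and its 3 lowest included controls and HFCSD at 10 weeks. Probe A_72_P303724 ranged from 4.62 to 9.14 (median 7.13), with 7.57 ± 0.71, 7.85 ± 0.37 and 7.61 ± 0.58 at 10 weeks, 6.5 ± 0.51, 6.17 ± 0.66 and 6.27 ± 0.89 at 19 and 6.66 ± 0.74, 7.01 ± 0.28 and 6.10 ± 1.28 at 27 weeks, and 8.29 ± 0.59, 8.35 ± 0.35 and 7.60 ± 0.91 in white blood cells. In its order the 6 groups of 19 and 27 weeks in whole blood came last. Probe A_72_P419074, detected on 43 of 45 arrays, ranged from 3.11 to 7.65 (median 5.24), with 5.13 ± 0.50, 4.47 ± 0.58 and 4.48 ± 0.37 at 10 weeks, 5.33 ± 0.44, 4.63 ± 1.05 and 4.89 ± 0.02 at 19 and 5.59 ± 0.36, 5.50 ± 0.28 and 4.88 ± 0.36 at 27 weeks, and 6.93 ± 0.61, 6.77 ± 0.40 and 6.29 ± 0.68 in white blood cells. Its 3 white blood cell groups stood above all whole blood groups, with a gap of 0.70. For the other 3 probes no neighbours were apart beyond their spread, which does not cover groups further apart in the order.

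The TLR4 probes detected on all 45 arrays varied together to different degrees. With group means subtracted, A_72_P165431 and A_72_P303724 had a Pearson correlation of 0.944 over the 45 arrays, and A_72_P180746 and A_72_P303724 had 0.722. Without subtracting group means the latter value was 0.388, and the former 0.907. For A_72_P165431 and A_72_P180746 the correlation was 0.795 with group means subtracted and 0.637 without.

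Of the endosomal receptors, TLR7, a sensor of single-stranded RNA, was detected on all 45 arrays and ranged from 6.32 to 9.14 (median 7.84). Its whole blood levels were 6.66 ± 0.37, 7.13 ± 0.48 and 6.80 ± 0.25 at 10 weeks, 7.85 ± 0.39, 8.13 ± 0.81 and 8.25 ± 0.41 at 19 and 8.05 ± 0.29, 8.23 ± 0.30 and 8.02 ± 0.45 at 27 weeks, and those of white blood cells 7.61 ± 0.26, 8.17 ± 0.53 and 8.16 ± 0.21. The 3 groups of 10 weeks were the lowest of the 12. TLR8, its neighbour on chromosome X and also a sensor of single-stranded RNA, was detected on 20 of 33 whole blood arrays. Its levels were 3.81 ± 0.19, 4.53 ± 0.24 and 4.16 ± 0.68 at 10 weeks, 4.12 ± 0.45, 3.52 ± 1.5 and 4.05 ± 1.02 at 19 and 4.18 ± 0.64, 4.80 ± 0.07 and 3.13 ± 1.45 at 27 weeks in whole blood, and 5.01 ± 0.37, 5.88 ± 0.39 and 5.36 ± 0.77 in white blood cells, its 3 highest groups.

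TLR3, which binds double-stranded RNA, was detected on 10 of 33 whole blood arrays, and so was TLR9, which binds DNA with unmethylated CpG. TLR3 levels were 2.26 ± 0.93, 3.0 ± 0.33 and 2.61 ± 1.09 at 10 weeks, 3.46 ± 1.08, 2.82 ± 1.31 and 4.11 ± 0.36 at 19 and 4.22 ± 0.37, 3.91 ± 0.78 and 3.55 ± 1.38 at 27 weeks in whole blood, and 5.0 ± 0.44, 5.04 ± 0.53 and 5.07 ± 0.47 in white blood cells, with a gap of 0.78 between the sample types in its order. TLR9 levels were 3.47 ± 0.53, 3.69 ± 0.25 and 3.56 ± 0.40 at 10 weeks, 3.13 ± 0.75, 2.74 ± 0.82 and 2.49 ± 1.05 at 19 and 3.40 ± 0.44, 3.66 ± 0.16 and 3.02 ± 0.39 at 27 weeks in whole blood, and 4.15 ± 0.66, 4.28 ± 0.52 and 4.01 ± 0.49 in white blood cells, also its 3 highest groups. In whole blood under HFCSD at 27 weeks the count of detecting arrays was 0 of 3 for each of TLR3, TLR6, TLR8 and TLR9.

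Of 12 receptor probes, 8 had their highest group mean in white blood cells, or 7 with normexp background correction. Of all probes 35.1% had theirs there, and of the probes detected on every white blood cell array, as all 12 receptor probes were, 53.6%. Whether the receptors differ from that was not tested. Ordered by mean, the 12 probes give 132 pairs of neighbouring groups, and in 4 of them the gap was larger than the SD of both groups. The gaps of TLR3, TLR6 and TLR4 probe A_72_P419074 lay between the sample types. The other was TLR8 in whole blood under HFCD, 0.27 higher at 27 than at 10 weeks.

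The comparison of white blood cells with whole blood at 27 weeks asks which receptors differ between the sample types within a diet. Of the TLR4 probes, A_72_P419074 and A_72_P303724 were higher in white blood cells under every diet, though under HFCSD not apart from array brightness. By limma with Benjamini-Hochberg adjustment over all probes tested, 3 of 12 receptor probes passed in controls, 2 of 12 under HFCD and 6 of 12 under HFCSD. TLR4 probes A_72_P165431 and A_72_P180746 passed under no diet. Of these 11 calls, the 6 of TLR4 were detected on every array of both sample types. The other 5, TLR6 in controls and TLR3, TLR6, TLR8 and TLR9 under HFCSD, entered the test only through white blood cells. A probe that enters that way has little room to come out lower there, so the direction of these 5 carries no weight, nor does that of any receptor probe with a whole blood array not well above background in the group compared. Of all probes, 45.3% passed in controls (24.4% higher), 47.5% under HFCD (25.5% higher) and 58.8% under HFCSD (37.1% higher). Whether the members' shares differ from these was not tested. The median change of all probes tested was 0.17, 0.19 and 0.42 in controls, HFCD and HFCSD. Among probes detected on every array of both sample types under all diets, the median of the 8 receptor probes was 0.14, 0.14 and 0.29, and that of all such probes 0.09, 0.16 and 0.30. Of these 8 receptor probes, 2 passed as higher under each diet and 0 as lower. Of all such probes, 21%, 23.8% and 32.4% passed as higher in controls, HFCD and HFCSD, and a difference from these shares was not tested. In bulk samples such as these, fewer cells of a type and less RNA per cell cannot be told apart.

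TLR4 probe A_72_P419074 read 6.09, 5.24, 5.56 and 5.46 in whole blood of controls and 7.65, 6.83, 7.09 and 6.17 in their white blood cells. Under HFCD it read 5.76, 5.20 and 5.55 in whole blood and 6.83, 6.94, 7.12 and 6.21 in white blood cells. Under HFCSD it read 4.47, 5.15 and 5.0 in whole blood and 5.48, 5.99, 6.95 and 6.74 in white blood cells. Under each diet the lowest white blood cell array was above the highest whole blood array. The log2 change was 1.34 ± 0.33 (SE; adjusted p = 0.0029) in controls, 1.27 ± 0.36 (SE; adjusted p = 0.0071) under HFCD and 1.42 ± 0.36 (SE; adjusted p = 0.0026) under HFCSD. With the brightness of each array, as its percentage of detected spots, as a covariate, the HFCSD change was 1.14 ± 0.50 (SE; adjusted p = 0.0871).

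TLR4 probe A_72_P303724 read 6.85, 6.60, 7.48 and 5.70 in whole blood of controls and 9.14, 8.0, 8.19 and 7.84 in their white blood cells. Under HFCD it read 7.33, 6.83 and 6.87 in whole blood and 8.59, 8.32, 8.62 and 7.85 in white blood cells. Under HFCSD it read 4.62, 6.91 and 6.75 in whole blood and 6.45, 7.31, 8.42 and 8.24 in white blood cells. The sample types did not overlap in controls and under HFCD, while under HFCSD the lowest white blood cell array was below the 2 upper whole blood arrays. The change was 1.63 ± 0.49 (SE; adjusted p = 0.0111) in controls, 1.33 ± 0.53 (SE; adjusted p = 0.0456) under HFCD and 1.51 ± 0.53 (SE; adjusted p = 0.0208) under HFCSD. The HFCD call was lost with a weaker detection flag, with no filter on dim probes and with slide as a block. Probe A_72_P165431 had log2 differences of 0.92, 0.57 and 0.59 in the same order and A_72_P180746 had 0.15, 0.22 and 0.35, and neither passed under any diet.

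The HFCD call of A_72_P303724 was held in 11 of 22 fits with 1 array left out. It was lost without any HFCD whole blood array, without HFCD white blood cell replicate 1, 2 or 3, without control whole blood replicate 1 or 2, without control white blood cell replicate 2 or 3 and without HFCSD white blood cell replicate 2, with adjusted p from 0.0509 to 0.127. Its HFCSD call was lost without whole blood replicate 1 (change 0.77, adjusted p = 0.213) and without white blood cell replicate 3 (adjusted p = 0.0688) or 4 (adjusted p = 0.0620). For A_72_P165431 in controls, the change passed without whole blood replicate 3 (1.16, adjusted p = 0.0424).

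TLR6, the surface partner of TLR2, read 3.50, 4.19, 3.86 and 3.38 in whole blood of controls and 4.80, 4.91, 5.14 and 4.72 in their white blood cells. Under HFCSD it read 2.27, 3.1 and 4.38 in whole blood and 4.11, 4.51, 4.98 and 4.92 in white blood cells. The groups did not overlap in controls, and under HFCSD 1 whole blood array lay within the range of white blood cells. The change was 1.16 ± 0.33 (SE; adjusted p = 0.0082) in controls, where 3 of 4 whole blood arrays were well above background. This size rests partly on the dim value of the remaining array and is not exact. Both calls entered the test only through white blood cells, so their direction carries no weight. With 0 of 3 under HFCSD (adjusted p = 0.0031), the fold there is only a bound: each dim value was raised to the dimmest well-above-background probe of its array where it lay below that, which gave at least 1.24-fold higher in white blood cells. Under HFCD, with 2 of 3 whole blood arrays well above background, it missed the threshold (adjusted p = 0.0688). It passed there without HFCD white blood cell replicate 4 or HFCSD whole blood replicate 1 or 3 (adjusted p from 0.021 to 0.0465). With normexp background correction the calls in controls and under HFCSD were both lost.

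TLR8 read 1.49, 4.25 and 3.63 in whole blood under HFCSD and 4.43, 5.02, 5.99 and 6.01 in white blood cells. It entered the test only through white blood cells, so the direction of its call and of its bound carries no weight. With 0 of the 3 whole blood arrays well above background, the bound was at least 2.10-fold higher, and the adjusted p of 0.0010 rests on dim values. It did not pass in controls, where 3 of 4 whole blood arrays were well above background (adjusted p = 0.158). The difference was 1.08 under HFCD (adjusted p = 0.0850), which passed without HFCSD whole blood replicate 1 (adjusted p = 0.0252). That array held the lowest value of TLR8 among all 45.

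TLR3 read 1.99, 4.60 and 4.07 in whole blood under HFCSD and 4.38, 5.33, 5.42 and 5.15 in white blood cells, so that 1 whole blood array reached into the range of the other group. It too entered only through white blood cells, so the direction of its call and of its bound carries no weight. With 0 of 3 whole blood arrays well above background, the bound was at least 1.63-fold higher, and the adjusted p of 0.0127 rests on dim values. Without HFCSD whole blood replicate 1 it no longer passed (adjusted p = 0.157). Under HFCD, with 1 of 3 whole blood arrays well above background, it did not pass (adjusted p = 0.0647). It passed there without HFCD white blood cell replicate 4, HFCD whole blood replicate 1 or HFCSD whole blood replicate 1 or 2 (adjusted p from 0.0177 to 0.0465).

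TLR9 read 2.69, 2.92 and 3.45 in whole blood under HFCSD and 3.41, 3.85, 4.53 and 4.26 in white blood cells, with an overlap of 1 array on each side. The adjusted p was 0.0232, but 0 of 3 whole blood arrays were well above background and the bound gave no fold above 1, so that no difference in level is given. The call was lost without HFCSD whole blood replicate 1 (adjusted p = 0.103) or 2 (adjusted p = 0.0633) and without HFCSD white blood cell replicate 3 (adjusted p = 0.0738) or 4 (adjusted p = 0.0567). In controls, with 2 of 4 whole blood arrays well above background, it did not pass (adjusted p = 0.0730), except without control white blood cell replicate 3 (adjusted p = 0.0227).

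The other receptors did not pass between the sample types. TLR1 had log2 differences of 0.09, 0.07 and 0.22 in controls, HFCD and HFCSD, TLR2 had 0.14, -0.08 and -0.25, TLR7 had -0.44, -0.06 and 0.14, and TLR10 had -0.14, -0.30 and -0.16. Relative to the median of all probes, the HFCSD changes measured in both sample types that passed were 1.09 for A_72_P303724 and 0.99 for A_72_P419074. Scaling each array to its 75th percentile moved the median of all probes to 0.30, 0.38 and 0.50. With array brightness as a covariate, the 6 HFCSD calls were lost. That of A_72_P303724 went from 1.51 to 1.01 ± 0.73 (SE; adjusted p = 0.306). By a t-test with the same adjustment all but that of A_72_P419074 were lost. The study's methods name a t-test with p under 0.05 and no adjustment. Detected spots made up 39.6% (38.8% to 39.7%) of HFCSD whole blood arrays of 27 weeks, 48.0% (38.9% to 50.2%) of those of controls and 47.8% (46.1% to 48.6%) of HFCSD white blood cell arrays, given as median and range. The 2 HFCSD groups do not overlap in this share, so brightness and sample type cannot be told apart there. All white blood cell arrays were isolated with another kit and scanned on another day than the whole blood arrays, so sample type, kit and scan day cannot be told apart.

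**Figure D2:**
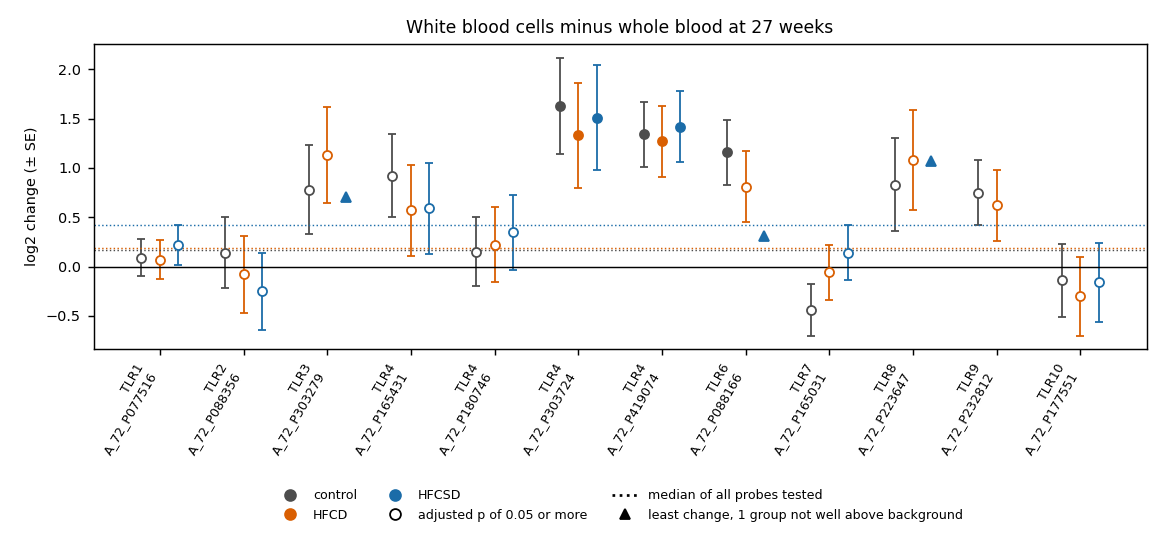
Log2 change from whole blood to white blood cells at 27 weeks (vertical axis) for the 12 receptor probes (horizontal axis) under 3 diets; points are limma estimates with their SE, filled where the adjusted p was under 0.05, triangles are least changes where 0 whole blood arrays were well above background, and dotted lines are medians of all probes tested. The 7 filled circles lie from 1.16 for TLR6 to 1.63 for TLR4 probe A_72_P303724, both in controls, and TLR9 under HFCSD has no point. The TLR6 point in controls rests partly on a dim whole blood value. That point and the triangles entered the test only through white blood cells, so their direction carries no weight.

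Lists of cell type markers were followed in the same samples, here among probes detected on every array of both sample types under all diets. In controls, 1 of 8 monocyte probes passed as higher in white blood cells and 0 as lower (median change 0.83), and of T cell probes 7 of 10 were higher and 0 lower (median 0.86), against 21% higher and 20.3% lower of all such probes (median 0.09). CD14 did not pass in controls by A_72_P050971 (0.65, adjusted p = 0.291). Its other probe and the NK cell gene PRF1 passed there with 3 of 4 whole blood arrays well above background, and no size is given for them. The NK cell gene KLRK1 was higher (1.38). For neutrophil genes 0 of 4 probes passed (median 0.14) and for platelet genes 0 of 3 (median 0.32). The only dendritic cell gene matched, XCR1, was lower in all 3 comparisons, by log2 changes of -2.31 in controls, -3.48 under HFCD and -4.16 under HFCSD. Under HFCD and HFCSD, 2 and 1 of 8 monocyte probes, 5 and 7 of 10 T cell probes, 1 and 1 of 4 neutrophil probes, 1 and 1 of 1 NK cell probe and 0 and 0 of 3 platelet probes were higher, against 23.8% and 32.4% of all such probes. Of 10 erythroid genes listed 0 matched a probe, so red cell RNA is not described. The part of these markers in the TLR changes was not tested.

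The comparison of 27 with 10 weeks asks how whole blood differs over feeding time and age within a diet. TLR7 rose in controls and under HFCSD. Probe A_72_P180746, tied to TLR4 only by a protein entry name in its description, rose in controls. Of the receptor probes, 2 of 8 tested passed in controls, 0 of 9 under HFCD and 1 of 8 under HFCSD, all higher. Of all probes, 20.7% passed in controls (12.2% higher), 5.6% under HFCD (1.71% higher) and 10.3% under HFCSD (3.66% higher). For HFCD, where limma passed 0, 4 of 9 probes had an unadjusted p under 0.05, against 20.5% of all probes. Over the 25 tests of the 3 diets, a t-test passed 1 after adjustment, TLR7 in controls, against 4.65% of all probes, and gave 7 with an unadjusted p under 0.05, against 27.9%.

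TLR7 read 7.17, 6.69, 6.47 and 6.32 at 10 weeks against 8.35, 8.26, 7.77 and 7.84 at 27 weeks in controls. Under HFCD it read 7.76, 7.02, 7.15 and 6.60 at 10 weeks against 8.23, 7.92 and 8.53 at 27 weeks. Under HFCSD it read 6.81, 7.04, 6.91 and 6.46 at 10 weeks against 7.67, 7.85 and 8.53 at 27 weeks. Under each diet every array of 27 weeks was above every array of 10 weeks. The change was 1.39 ± 0.31 (SE; 2.62-fold, adjusted p = 0.0027) in controls, 1.09 ± 0.34 (SE; adjusted p = 0.0554) under HFCD and 1.21 ± 0.34 (SE; 2.32-fold, adjusted p = 0.0231) under HFCSD.

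The control call of TLR7 was held in 33 of 33 fits with 1 array left out. The HFCSD call was lost by the t-test after adjustment (adjusted p = 0.0635), without 10-week replicate 4 (1.1, adjusted p = 0.0779) and without 27-week replicate 3 (0.96, adjusted p = 0.118). The HFCD change passed with only probes detected on every array, with all 45 arrays in 1 fit, and without HFCD replicate 1 of 10 weeks (1.30, adjusted p = 0.0394) or HFCD replicate 1 (adjusted p = 0.0260) or 2 (adjusted p = 0.0348) of 19 weeks. The same pigs were kept through all periods by the methods, and the tests treat arrays as independent. Each feeding period was scanned on its own days, so period, age and scan day cannot be told apart. Cell type markers were followed over the same time, among probes detected on every whole blood array. Of 9 T cell probes 4 were lower at 27 weeks in controls, 2 under HFCD and 1 under HFCSD, and 0 higher (medians -0.51, -0.77 and -0.47), against 8.63%, 4.38% and 5.17% lower of all such probes. Of 8 monocyte probes 1, 0 and 0 were higher (medians 0.60, 0.68 and 0.58), of 4 neutrophil probes 1, 0 and 0 and of 1 NK cell probe 1, 1 and 0, against 11.4%, 1.98% and 2.78% of all such probes. For XCR1 and the 3 platelet probes 0 passed. Their part in the TLR results was not tested.

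TLR4 probe A_72_P180746 read 7.97, 6.71, 7.02 and 7.91 at 10 weeks against 9.06, 8.12, 8.46 and 8.39 at 27 weeks in controls, with no overlap. The change was 1.11 ± 0.35 (SE; 2.15-fold, adjusted p = 0.0254). It was lost by the t-test after adjustment (adjusted p = 0.109), with array brightness as a covariate (0.93, adjusted p = 0.0793), and without control replicate 2 (0.87, adjusted p = 0.108) or 3 (0.98, adjusted p = 0.0781) of 10 weeks or control replicate 1 of 27 weeks (0.92, adjusted p = 0.0963). Under HFCD the change was 0.81 (adjusted p = 0.217) and under HFCSD 0.30 (adjusted p = 0.643).

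Probe A_72_P303724, matched to TLR4 by RefSeq, had values of the other sign, none of which passed. It read 8.35, 6.83, 7.13 and 7.98 at 10 weeks against 6.85, 6.60, 7.48 and 5.70 at 27 weeks in controls, which overlap. Under HFCSD it read 7.69, 7.44, 6.97 and 8.35 at 10 weeks against 4.62, 6.91 and 6.75 at 27 weeks, which do not. Under HFCD all arrays of 27 weeks (6.83 to 7.33) also lay below those of 10 weeks (7.52 to 8.38). The differences were -0.92 ± 0.47 (SE; adjusted p = 0.163) in controls, -0.84 ± 0.51 (SE; adjusted p = 0.369) under HFCD and -1.52 ± 0.51 (SE; adjusted p = 0.0552) under HFCSD. The HFCSD difference passed without HFCD replicate 1 or 4 or HFCSD replicate 3 of 19 weeks, without control replicate 4 of 27 weeks and without HFCSD replicate 2 or 3 of 27 weeks, with adjusted p from 0.0381 to 0.0497. A_72_P165431 had -0.07, -0.03 and -0.36 in controls, HFCD and HFCSD, and A_72_P419074 had 0.46, 1.03 and 0.40. Neither passed, and A_72_P419074 under HFCD passed only without HFCD replicate 4 of 19 weeks (adjusted p = 0.0465). None of the 3 probes with a RefSeq match passed over time, so a change of TLR4 rests on the annotation of A_72_P180746.

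**Figure D3:**
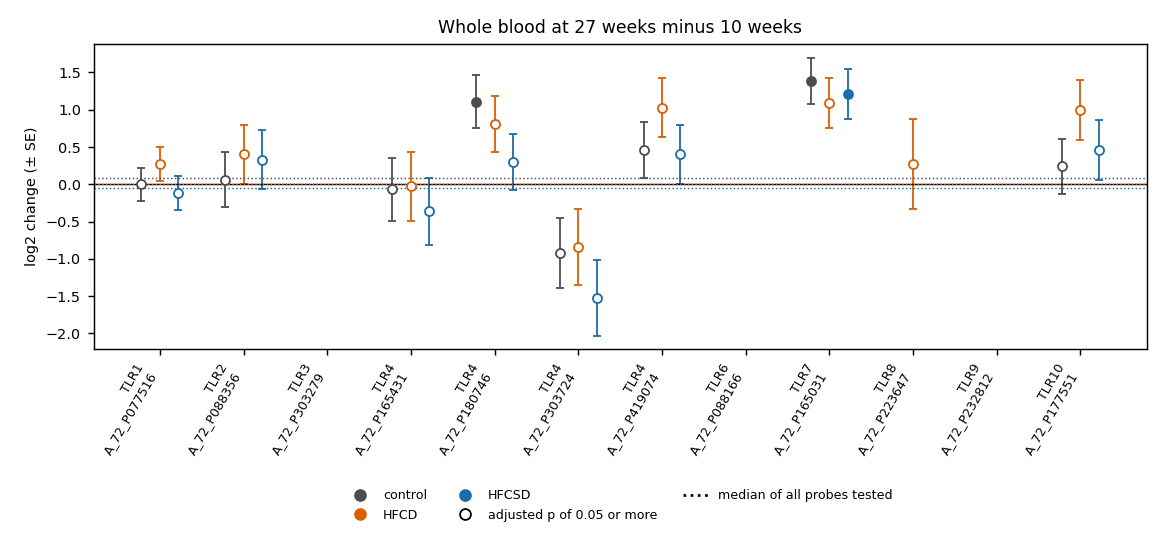
Log2 change in whole blood from 10 to 27 weeks (vertical axis) for receptor probes that entered the test (horizontal axis) under 3 diets; points are limma estimates with their SE, filled where the adjusted p was under 0.05, and dotted lines are medians of all probes tested. TLR7 lies at 1.39, 1.09 and 1.21 in controls, HFCD and HFCSD, and TLR4 probes lie on either side of 0.

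2 of the probes annotated to TLR4 are shown to let readers see what each one targets. Probe A_72_P303724, whose change over time was below 0, has an open reading over its length in 2 frames:
A_72_P303724: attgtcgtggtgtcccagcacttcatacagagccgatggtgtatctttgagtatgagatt
Probe A_72_P180746, which rose in controls, holds AATAAA, a hexamer known as a polyadenylation signal, here in capitals within 26 bases:
A_72_P180746: cacttcttggAATAAAgggagacaag
The letters AATAAA were found on the printed strand in 12.1% of the 43603 probes and on the other strand in 4.63%, with 16.3% on either. Of the 12 receptor probes, 2 held them on the printed strand and 1 on the other. A match is a description and shows no use of the site. Probes of different TLR genes shared at most 8 bases in a row, and TLR4 probes at most 7.

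The diet comparisons ask which receptors differ from control within a sample type and feeding period. Both diets were set against the same control arrays. In 8 comparisons with 74 tests of receptor probes, limma passed 0. An unadjusted p under 0.05 was reached by 7 (3 higher, 4 lower), and by the t-test 4 reached it and 0 passed after adjustment. By limma this number was 1 with array brightness as a covariate, and 10 with normexp or with only the groups compared in the fit. Of all probes in these comparisons, 11.2% had an unadjusted p under 0.05 by limma and 10.7% by the t-test. With groups of 3 or 4 arrays, 0 passed does not exclude a difference. The groups did not overlap in 6 tests (1 higher, 5 lower), against 9.29% of all probes, and the 1 higher, TLR8 under HFCD at 10 weeks, rests on dim control values.

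The share of all probes that passed differed between comparisons. For HFCD it was 0.0281% at 10 weeks, 0.0181% at 19 weeks and 0.0165% at 27 weeks in whole blood, and 0.0276% in white blood cells. For HFCSD it was 0.0123%, 0.0175% and 10.6% in whole blood and 0.0366% in white blood cells. The 10.6% depends on the setting: it was 0% with array brightness as a covariate, 142 of 17133 probes by the t-test and 453 of 43603 with no filter on dim probes. With all 45 arrays in 1 fit, the counts at 19 weeks were 530 of 16613 probes for HFCD and 330 of 17177 for HFCSD, in place of 3 and 3.

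TLR4 gave the lowest adjusted p-values among the receptors, in whole blood under HFCSD at 27 weeks. Probe A_72_P180746 read 7.11, 7.91 and 8.09 under HFCSD, below all control arrays (9.06, 8.12, 8.46 and 8.39). Probe A_72_P419074 read 4.47, 5.15 and 5.0, also below all control arrays (6.09, 5.24, 5.56 and 5.46). Their log2 differences were -0.81 ± 0.31 (SE; adjusted p = 0.107) and -0.71 ± 0.27 (SE; adjusted p = 0.101), or -0.60 and -0.51 relative to the median of all probes. Probes A_72_P165431 and A_72_P303724 had -0.26 and -0.56 there (adjusted p = 0.675 and 0.490). None of the 4 passed.

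At 19 weeks A_72_P180746 read 8.34, 7.47, 7.95 and 6.65 under HFCD and 8.64, 8.08, 9.45 and 8.57 in controls, with 3 of the 4 HFCD arrays below every control. The log2 difference was -1.08 ± 0.37 (SE; adjusted p = 0.286). Only 1 of the 4 control arrays was scanned on the day of the HFCD and HFCSD arrays. Against that array alone the difference was -1.04, and against the other 3 it was -1.1. With scan day as a block it was -1.04 (adjusted p = 0.811).

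Among nucleic acid sensors, TLR8 read 4.34, 4.65, 4.33 and 4.82 under HFCD at 10 weeks and 3.93, 3.59, 3.73 and 4.01 in controls, where 1 of 4 arrays was well above background (adjusted p = 0.446). In white blood cells under HFCD, TLR8 had a difference of 0.87 ± 0.35 (SE; adjusted p = 0.997) and TLR7 of 0.55 ± 0.25 (SE; adjusted p = 0.997), with 3 of 4 HFCD arrays above every control for both. Under HFCSD the TLR7 difference was also 0.55 ± 0.25 (SE; adjusted p = 0.442), with 3 of 4 arrays above every control, and that of TLR8 was 0.35 (adjusted p = 0.760). TLR10 had -0.83 ± 0.35 (SE; adjusted p = 0.470) under HFCD at 10 weeks, with 2 of 4 arrays below every control. None of these passed.

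HFCSD against HFCD addresses the added sucrose. In 4 comparisons with 38 tests, limma passed 0 receptor probes, 2 had an unadjusted p under 0.05 (both lower under HFCSD) and the t-test gave 0 at that level and passed 0. Of all probes, 5.36% had an unadjusted p under 0.05 (4.34% by the t-test), and 0% at 10 weeks, 0% at 19 weeks, 0.0111% at 27 weeks and 0% in white blood cells passed. The groups did not overlap in 3 of the 38 tests, all lower, against 5.96% of all probes. TLR8 in whole blood at 27 weeks read 4.75, 4.88 and 4.77 under HFCD and 1.49, 4.25 and 3.63 under HFCSD, at least 1.42-fold lower as a bound (adjusted p = 0.393). It was well above background on 3 of 3 arrays under HFCD and 0 of 3 under HFCSD, and entered the test only through HFCD. Its direction, counted in both numbers of lower probes above, therefore carries no weight. The other receptor was TLR4 by A_72_P180746, with -0.77 ± 0.33 (SE; adjusted p = 0.393).

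Whether a diet effect differed between sample types or between periods was tested as a difference of changes. Of 41 such tests in 4 comparisons, limma passed 0 and 0 had an unadjusted p under 0.05, against 9.52% of all probes. Of all probes, 0% passed for HFCD and 1.38% for HFCSD between sample types, and 0% and 0% between periods. The lowest adjusted p was 0.272, for TLR8 under HFCSD between white blood cells and whole blood, where 0 of 3 whole blood arrays were well above background.

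The rest of the pathway was taken from 9 lists with 83 probes of 52 genes. In the diet comparisons 0 of them passed by limma, except in whole blood under HFCSD at 27 weeks, where 2 of 58 probes tested were higher and 2 lower, against 6.78% and 3.87% of all probes. Among those higher was IRF7, a transcription factor of the interferon response, with 2.14 ± 0.51 (SE; adjusted p = 0.0310). Those lower were CD36, a scavenger receptor and co-receptor of TLR2, with -1.57 ± 0.39 (SE; adjusted p = 0.0343), and IL18, a cytokine of the interleukin-1 family, with -1.49 ± 0.37 (SE; adjusted p = 0.0345). For IRF7, CD36 and IL18 the 3 HFCSD arrays did not overlap the 4 controls. Their calls were lost without HFCSD replicate 1 or 2 or control replicate 1, 2 or 3, and for CD36 and IL18 also without HFCSD replicate 3, with adjusted p from 0.0535 to 0.110. None of these 3 calls held with array brightness as a covariate, where IRF7 had 0.88, by the t-test after adjustment or with no filter on dim probes. Those of CD36 and IL18 were also lost with all 45 arrays in 1 fit, and that of IL18 with the replicate number as a block. Over the 14 other settings the log2 difference lay between -1.95 and -1.23 for CD36 and between -1.65 and -1.38 for IL18. For IRF7 it lay between 0.88 and 2.53. With 1 array left out, the log2 difference lay between -1.92 and -1.15 for CD36, between -1.79 and -1.1 for IL18 and between 1.95 and 2.53 for IRF7. In the other 7 comparisons the unadjusted p was under 0.05 for between 4 of 56 probes, against 1.73% of all probes, and 24 of 64, against 10%, in whole blood at 10 weeks under HFCSD and HFCD.

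Per list, the largest log2 differences from control at 27 weeks are given here by role. Among co-receptors, CD36 had -1.26 in whole blood under HFCD (adjusted p = 0.893) and, by another probe, -1.27 in white blood cells under HFCD (adjusted p = 0.997), and CD14 had -1.09 in white blood cells under HFCSD (adjusted p = 0.356). The chaperone HSP90B1, which folds TLRs, had 0.24 and -0.58 in whole blood and 0.59 and 0.27 in white blood cells under HFCD and HFCSD. The adaptor MYD88 had 0.58 and 1.29 (adjusted p = 0.972 and 0.0660) in whole blood and, by another probe, -0.50 and -1.07 (adjusted p = 0.997 and 0.286) in white blood cells. In the relay, TRAF6 was well above background on 3 of 4 control arrays in whole blood (adjusted p = 0.998 under HFCD) and had -0.82 in white blood cells under HFCSD, and IKBKG had 0.59 in whole blood under HFCSD and -0.47 in white blood cells under HFCD. The inhibitor NFKBIA had 0.20 with A_72_P342398 and -0.70 with A_72_P209997 in whole blood, and 0.96 and 0.89 with A_72_P165846 in white blood cells.

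With A_72_P065236, another probe than above, IRF7 had 1.35 (adjusted p = 0.893) in whole blood under HFCD and 1.41 and 0.98 (adjusted p = 0.633 and 0.344) in white blood cells. Of the target cytokines, the chemokine CXCL10 had, with A_72_P165266, 1.89 (adjusted p = 0.0717) in whole blood under HFCSD. Its probe A_72_P099341 was well above background on 1 of 4 control arrays in whole blood (adjusted p = 0.893 under HFCD) and on 3 of 4 in white blood cells (adjusted p = 0.978 and 0.561), so no size is given. Of other pattern recognition receptors, DDX58 had 1.24 in white blood cells under HFCD, IFIH1 was well above background on 3 of 4 control arrays in whole blood (adjusted p = 0.893 under HFCD), and PGLYRP1 had 1.17 in whole blood and TREM1 -0.89 in white blood cells under HFCSD. Of interferon-induced genes, the antiviral RSAD2 had 2.48 (adjusted p = 0.893) in whole blood under HFCD and 2.41 and 1.82 (adjusted p = 0.633 and 0.325) in white blood cells. None of these passed. Of the marker lists, 0 probes passed in the 8 diet comparisons. The median of the 3 platelet probes was below 0 in each of these comparisons, from -0.06 to -1.40. The median of all probes tested lay from -0.21 to 0.09 there. Medians of the other marker lists are not given for these comparisons, and a difference of the platelet list was not tested.

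Between sample types, 24 of 66 pathway probes passed as higher in white blood cells and 2 as lower in controls, 22 and 2 of 68 under HFCD and 26 and 3 of 67 under HFCSD. Among probes detected on every array of both sample types the numbers were 10 and 2, 14 and 2, and 16 and 3, of 49. Of all probes detected in that way, 21% were higher and 20.3% lower in controls, 23.8% and 19.5% under HFCD and 32.4% and 20.2% under HFCSD. Of all probes tested, 24.4% were higher and 20.9% lower in controls, 25.5% and 22% under HFCD and 37.1% and 21.6% under HFCSD. The target chemokine CXCL8 passed under each diet, but whole blood had it well above background on 2 of 4 arrays in controls and 0 of 3 under HFCD and HFCSD. It entered the test only through white blood cells, so its direction carries no weight and no size is given. The NF-kappa-B inhibitor NFKBIA was higher by 0.88, 1.76 and 2.32 with probe A_72_P209997. MYD88 was lower under HFCD and HFCSD with A_72_P245972 (-1.51 and -2.57). With A_72_P088111 it passed under each diet, where at most 1 whole blood array per diet was well above background. That probe entered the test only through white blood cells, so its direction carries no weight. Over time, 7 of 55 pathway probes were higher and 6 lower in controls, 2 and 3 of 65 under HFCD and 6 and 2 of 61 under HFCSD. Among probes detected on every whole blood array they were 6 and 4, 2 and 0, and 4 and 1, of 43. Of all probes detected on every whole blood array, 11.4% were higher and 8.63% lower in controls, 1.98% and 4.38% under HFCD and 2.78% and 5.17% under HFCSD. Of all probes tested, 12.2% were higher and 8.52% lower in controls, 1.71% and 3.9% under HFCD and 3.66% and 6.68% under HFCSD. LY96, the partner of TLR4, passed as higher under each diet, by 2.51 in controls, 1.79 under HFCD and 1.40 under HFCSD (adjusted p = 0.0458 in the last). Among co-receptor probes detected on every whole blood array, 1 of 4 passed as higher in controls, 1 under HFCD and 0 under HFCSD. With that filter no HFCSD call of LY96 remained. The NF-kappa-B subunit REL rose by 1.35, 1.21 and 1.24.

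Among 1333 probes detected on all 45 arrays that carry symbols of other genes, those most like each receptor over the arrays were found by Pearson correlation, as a description only, with arrays that share groups and scan days. TLR2 was most like CD14 (0.823), TNFRSF1A (0.807) and TYROBP (0.773). TLR1 was most like MEF2C (0.725), CYP51 (0.696) and FCGRT (0.696), and TLR10 like IRAK4 (0.665), HSPD1 (0.593) and SCP2 (0.587). TLR7 was most like REL (0.881), CD47 (0.838) and NDUFA4 (0.806). TLR4 by A_72_P165431 was most like TNFRSF1A (0.834), with ADAM17 also near (0.797), by A_72_P180746 like FGL2 (0.891), CCR1 (0.856) and P4HA1 (0.851), and by A_72_P303724 like TXNIP (0.896), CXCR4 (0.870) and TOR1A (0.851). With group means subtracted, TLR7 had 0.637 with REL, 0.44 with CD47 and 0.52 with NDUFA4, and CD14 and TLR2 had 0.784. Among the receptors themselves, TLR2 and TLR4 probe A_72_P303724 had 0.802 with group means subtracted, and TLR2 and TLR7 -0.154.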

How the data were processed

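Gene expression was measured in whole blood and white blood cells with Agilent porcine 1-colour arrays of 60-base probes. The authors deposited the spot intensity values of each array, and a series table of intensity that they had quantile normalized, used here as an alternative. The file headers name Feature Extraction 10.5.1.1, the submitters' notes 9.5.3.1. The software's processed intensities were taken as log2 and then quantile normalized across the 45 arrays. Outlier spots (1 to 31 per array) were left out, spots of a probe were averaged, and no spot was saturated. The number of arrays limits the precision.

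Tests used limma 3.58.1 in R 4.3.3, two-sided, with Benjamini-Hochberg adjustment at 0.05 over all probes tested. A probe was tested if well above background on every usable array of at least 1 group compared, and if each group had 2 or more usable arrays. Diets were fitted on the 3 diet groups of a sample type and period, sample types on the 6 groups of 27 weeks, and periods on the 9 whole blood groups. Groups follow the deposited labels, and no array was left out. Tables and plots used Python 3.11.15, numpy 2.4.6, pandas 2.3.3 and matplotlib 3.10.9. Alternatives tried were scaling by the 75th percentile, normexp with offset 50, the deposited table, normalization within a fit, 3 other filters, other sets of arrays, a t-test as in the methods but with adjustment and without their limit of 2-fold, blocks for replicate, slide and scan day, array brightness (percentage of detected spots) as a covariate, and each array left out. The procedure was tested on simulated data.

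Of all probes, 3097 have a symbol, matched to Sscrofa11.1 names: 2002 by RefSeq accession, 682 by gene name, 412 by protein entry and 1 by description. The lists are TLR co-receptors, chaperones, adaptors, kinases and ubiquitin ligases, transcription factors, inhibitors and target cytokines, other pattern recognition receptors, interferon-induced genes, and markers of monocytes, neutrophils, B cells, T cells, NK cells, dendritic cells, erythroid cells and platelets. Of the pathway lists, named are 3 of the probes that passed in a diet comparison and, per list, the largest change in each diet comparison of 27 weeks. For likeness, 2 or 3 of the 3 closest probes are named per receptor probe detected on all arrays. Genes named beyond this were chosen after their values were seen. The members and lists were chosen with earlier results of these data known.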

Additional observations from a re-analysis of the deposited data

Results flagged for a closer look

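In 83 groups of 4 arrays of the receptor probes, the gap between the most extreme array and the nearest other was divided by the group's range and compared with the tabled critical value of Dixon's test for 4 values. This set 5 arrays apart, and chance flags about 1 in 20 groups, or 4 here. The TLR1 probe in HFCD white blood cells had replicate 3 at 9.01 and the others from 8.60 to 8.63 (ratio 0.945). The TLR2 probe in HFCD whole blood at 10 weeks had replicate 4 at 9.58 and the others from 8.94 to 8.98 (0.941), and in control whole blood at 27 weeks replicate 4 at 8.32 and the others from 9.5 to 9.63 (0.897). TLR4 probe A_72_P165431 in HFCD white blood cells had replicate 4 at 8.34 and the others from 9.13 to 9.18 (0.942). TLR4 probe A_72_P180746 in HFCSD whole blood at 10 weeks had replicate 4 at 8.20 and the others from 7.05 to 7.25 (0.830).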

How the results depend on the processing

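The counts of receptor probes that passed were 0 for diet against control, HFCSD against HFCD and differences of diet effects under every alternative run and with each array left out. Between sample types the count of 11 was 6 when a probe had to be well above background on every array of the fit, 7 by a t-test with the same adjustment, 6 with array brightness as a covariate, 9 with normexp and 14 with scaling to the 75th percentile, and 9 to 13 with 1 array left out. Between 27 and 10 weeks the count of 3 was 5 with all 45 arrays in 1 fit and 1 by the t-test, and 2 to 5 with 1 array left out. The stricter filter tests fewer probes, and otherwise the cause was not tested. By the methods the pigs were kept through all periods, so periods and sample types can share pigs, which the tests treat as independent. The labels do not say which arrays share a pig. Within a diet, arrays of the same number had mean correlations, after subtracting group means, of 0.179 between 10 and 27 weeks (from -0.225 to 0.616, over 0.1 in 6 of 10 pairs; other numbers -0.059) and of 0.08 between sample types (6 of 10 pairs; others -0.035). The mean was 0.202 between 10 and 19 weeks and 0.199 between 19 and 27 weeks. Between diets, where equal numbers are different pigs, it was 0.213 at 10 weeks (over 0.1 in 8 of 12 pairs). It was -0.133 at 19 and -0.006 at 27 weeks in whole blood, and -0.043 in white blood cells. Whether a number is a pig was therefore not settled. With the replicate number as a block the counts were 12 and 3. With the number within each diet as a replicate block, chosen after seeing the data, they were 16 and 3, and 0 for differences of diet effects, and no call was lost. Of 2959 single values under other settings, 18 passed that had not, 24 no longer passed, 47 moved by 1 SE or more without passing either way and 0 were called in the other direction. Of 3974 with 1 array left out the numbers were 20, 24, 24 and 0. Scan day as a block could be fitted for the diet comparisons and not for sample type or period. The t-test was not run for differences of diet effects. Dim signal limits TLR3, TLR6, TLR8 and TLR9 in whole blood. The combinations of probe and group detected on every array were 108 of 144, and 136 with a weaker flag.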
